A study of Mus musculus with 4 samples.

Results

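The NRF2 antioxidant genes are 10 genes taken by symbol from the count files: the transcription factor gene Nfe2l2, the gene of its inhibitor Keap1, and 8 target genes, Nqo1, Gclc, Gclm, Gsr, Txnrd1, Srxn1, Prdx1 and Me1. All 10 were found among the 39179 gene identifiers of the files, and all 10 passed the filter on low counts that left 14075 genes to test. The study measured polyadenylated RNA of macrophages that were sorted from subcutaneous tumours of FVB mice as cells with CD45, CD11b and F4/80 and without GR1 at their surface. Tumours of 1 group were grown from the mouse prostate cancer line MycCaP, which carries a MYC transgene, and those of the other from MycCaP-BMP4 cells, the same line made to overexpress the secreted growth factor BMP4. Each group had 2 libraries, called replicates 1 and 2, and values are given in that order. Whether the BMP4 line is a single clone, and the sex, age and number of mice behind each library, are not stated in the labels, and the p-values therefore reflect the spread among libraries that may be technical replicates. All libraries carry the same cell type label, but only the MycCaP-BMP4 titles name F4/80.

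NRF2, the protein of Nfe2l2, switches on genes that protect cells from oxidants and reactive chemicals. In unstressed cells KEAP1 holds NRF2 and brings it to a CUL3 ubiquitin ligase, so that it is degraded. Oxidants modify cysteines of KEAP1, and NRF2 then builds up and binds antioxidant response elements together with a small MAF protein. In macrophages NRF2 is known for limiting inflammatory gene expression and for supporting the handling of iron and heme. Because NRF2 is controlled mainly through protein stability, the level of its messenger RNA is not a measure of its activity.

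The libraries held 23058263 to 24967143 counts in genes, and the floor used for detection, 3 counts, equals 0.120 to 0.130 CPM (counts per 1000000 gene counts, with counting error only). All values below are CPM scaled with TMM factors, which level the bulk of genes between libraries. MycCaP-BMP4 replicate 1 stood apart from the other 3 libraries in macrophage genes. The 15 pan-macrophage genes summed to 32947 and 29514 CPM in the MycCaP libraries, 6720 CPM in the first MycCaP-BMP4 library and 24968 CPM in the second, and each of the 15 had counts in every library. Mitochondrial genes took 0.671% and 1.63% of gene counts in MycCaP libraries against 3.28% and 2.85% in MycCaP-BMP4 libraries, and reads outside genes 3.98% and 3.37% of counted reads against 6.01% and 6.03%; their part in the results below was not tested. Relative to the MycCaP mean, the median of the list was 19.7% in MycCaP-BMP4 replicate 1 and 74.6% in the other replicate. The 13 tumour epithelium genes, of which 7 were tested, summed to 112 and 145 CPM against 787 and 310 CPM, while Krt5 had no count in any library and Epcam, Krt14, Krt18 and Cldn7 stayed under 1 CPM. Among lists for other cells, the median log2 fold change was -0.10 for 9 fibroblast and mural genes and -0.70 for 6 endothelial genes. It was 1.86 for 4 osteoblast genes, 0.03 for 4 neutrophil genes and -3.17 for 8 T and NK cell genes. The fibroblast and mural, endothelial, osteoblast and neutrophil medians lie between unlike genes, named here after their values were seen. In the fibroblast and mural list, 3 genes had a fitted change above 0 and 6 below. Dcn had 3.27 and Lum 1.35, beside -1.04 for Acta2 and -0.99 for Pdgfrb. Of the endothelial genes, 2 lay above 0 and 4 below, from 0.28 for Tek to -1.69 for Vwf. Of the osteoblast genes, Ibsp had 8.49 and Alpl 3.59, both at low levels, beside 0.13 for Spp1 and -0.12 for Runx2. Of the neutrophil genes, S100a8 had 0.87 and S100a9 0.85, beside -0.79 for Csf3r and -3.37 for Mmp8. In sorted bulk samples, fewer cells of a type and less RNA per cell cannot be told apart.

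Antioxidant response elements are shown here because they are the DNA through which NRF2 reaches its targets. The core TGACNNNGC was searched on both strands of RefSeq promoter windows (GRCm38.p6), which run from 250 bases before to 50 bases after a gene's start and held 8 of the 10 genes, not Gclc or Gsr. At least 1 window of 6 of these 8 genes had the core, against 14% of the 27025 genes with a window. Over single windows the share was 12.4% of 32851. The 10 genes were picked as NRF2 pathway genes, so this share is a description. The core is in capitals, and each sequence is read 5′ to 3′ on the genome strand named. No core was found in the windows of Keap1 or Nqo1, and DNA outside the windows was not searched.
Nfe2l2, chr2:75704887-75704911, minus strand: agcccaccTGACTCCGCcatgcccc
Gclm, chr3:122245415-122245439, minus strand: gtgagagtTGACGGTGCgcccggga
Txnrd1, chr10:82859106-82859130, minus strand: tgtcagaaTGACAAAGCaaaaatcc
Srxn1, chr2:152105544-152105568, minus strand: tctcactcTGACCTAGCtgcccact
Prdx1, chr4:116685458-116685482, minus strand: acgggggaTGACTCAGCgctttccc
Me1, chr9:86695904-86695928, minus strand: tgccgccgTGACTCAGCgcttctcg
The Prdx1 and Me1 elements share the letters TGACTCAGC and overlap the AP-1 motif TGACTCA, while the other 4 do not hold that motif. Counted from the RefSeq starts used for the windows, the cores of Prdx1 and Gclm began 133 and 134 bases before the start. That of Me1 began 6 bases before it. For Prdx1 and Me1 these starts differ from those of the gene coordinates given below, which are from GENCODE M21. The Me1 core lies inside the coordinates given for Me1. The Txnrd1 core lay in 1 of the 3 windows of that gene. A match of letters is not a measured NRF2 site, and no binding was measured in these samples.

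The comparison of MycCaP-BMP4 with MycCaP asks what BMP4 made by tumour cells does to the macrophages of the tumour. Me1 and the glutamate-cysteine ligase gene Gclc lay higher in both MycCaP-BMP4 libraries, as did Keap1, Gclm and Gsr, by small margins in replicate 2. Nqo1 and Prdx1 lay lower in both, Nqo1 with only 2 counts in MycCaP-BMP4 replicate 1. Nfe2l2 itself was low in MycCaP-BMP4 replicate 1 alone. None of the 10 genes passed edgeR's quasi-likelihood test with Benjamini-Hochberg adjustment over all genes, and neither did any other gene (0% of 14075 called, with 2680 at an unadjusted p under 0.05). At an unadjusted p under 0.05 the count was 2 of 10 NRF2 genes, both higher, where 12.3% of all genes were higher and 6.76% lower by that rule. The 2 groups did not overlap for 5 NRF2 genes that were higher in MycCaP-BMP4 libraries, against 28.9% of all genes tested, and for 2 that were lower, against 29.7%. The median log2 fold change of the 10 genes was 0.08, beside -0.03 for all genes tested. DESeq2 called 1 of the 10, Me1, which was higher, where it called 6.83% of all genes higher, and limma-voom called 0 of 14075 genes, with 2743 at an unadjusted p under 0.05.

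**Figure D1:**
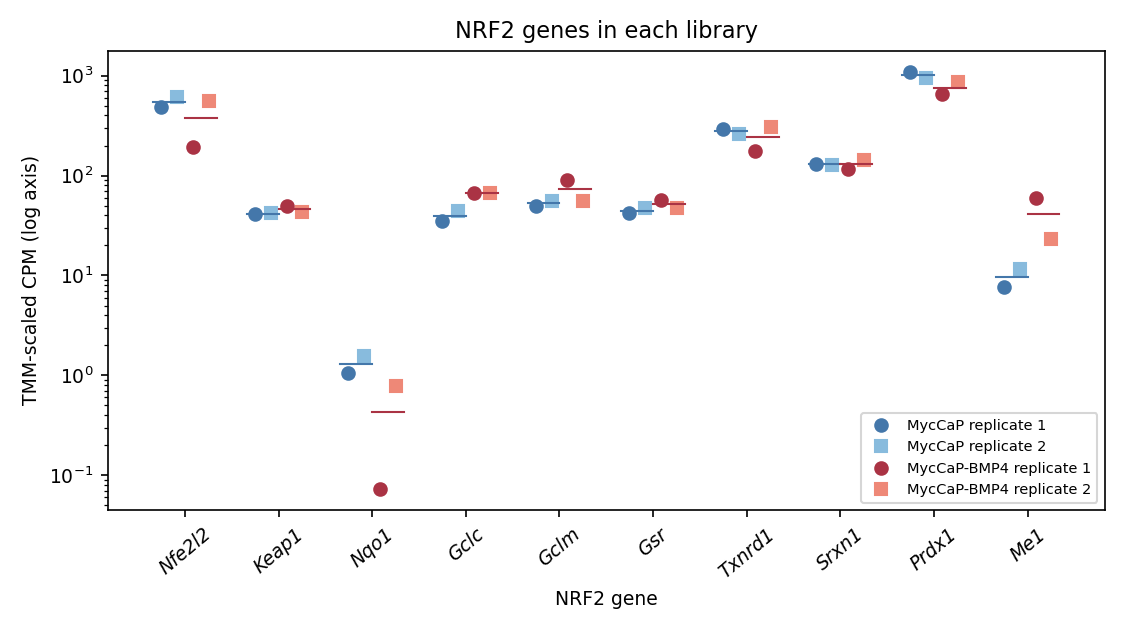
TMM-scaled CPM of the 10 NRF2 genes (log axis) in the 4 libraries, each point 1 library and each short line the mean of 2 libraries of a group. The Me1 points of both MycCaP-BMP4 libraries lie above both MycCaP points, and Nfe2l2 is low in MycCaP-BMP4 replicate 1 at 192 CPM.

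Nfe2l2 (ENSMUSG00000015839; GRCm38 chromosome 2, 75675513 to 75704641, minus strand, protein-coding) had 481 and 618 CPM in the MycCaP libraries and 192 and 556 CPM in the MycCaP-BMP4 libraries. Replicate 1 of the MycCaP-BMP4 group was the low one, and replicate 2 lay between the MycCaP libraries, so the groups overlapped. The fitted log2 difference of -0.55 ± 0.56 (SE) was no larger than its error (edgeR adjusted p = 0.610). Without MycCaP-BMP4 replicate 1 the value was 0.02. In replicate 1 Nfe2l2 stood at 35.0% of the MycCaP mean, beside the 19.7% of the pan-macrophage genes in the same library; the part of the macrophage genes in this result was not tested. Per kilobase of exon, Nfe2l2 was 0.398 and 0.454 times the level of the macrophage receptor gene Csf1r in the MycCaP libraries and 0.691 and 0.552 times in the MycCaP-BMP4 libraries.

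Over the 4 libraries, the genes whose pattern lay closest to that of Nfe2l2 were Grk3, Npc1 and Rrad, out of 9111 genes with a mean of at least 10 CPM. The distances between centred log2(CPM + 1) values were 0.0904, 0.106 and 0.106. Npc1, which encodes a lysosomal cholesterol transporter, had 127 and 154 CPM against 52.1 and 141 CPM. Grk3, a kinase gene for G protein-coupled receptors, had 33.4 and 40.3 CPM against 12.5 and 35.9 CPM. All 3 share with Nfe2l2 the low value in MycCaP-BMP4 replicate 1, which follows from how they were picked. The likeness rests on 4 libraries.

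Keap1 (ENSMUSG00000003308; chromosome 9, 21229730 to 21239361, minus strand), the gene of the sensor that inhibits NRF2, had 40.8 and 42.2 CPM in the MycCaP libraries and 50.01 and 43.0 CPM in the MycCaP-BMP4 libraries. Both MycCaP-BMP4 values lay above both MycCaP values, replicate 2 by a small margin, and the log2 fold change was 0.16 ± 0.24 (SE), with an edgeR adjusted p of 0.723. Per kilobase of exon, Nfe2l2 messenger RNA was 14.6 and 18.1 times that of Keap1 in the MycCaP libraries and 4.75 times in MycCaP-BMP4 replicate 1, the library with low macrophage genes. In replicate 2 the ratio lay within the MycCaP range.

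Glutathione is made in a first step by glutamate-cysteine ligase, whose catalytic subunit is encoded by Gclc and whose modifier subunit is encoded by Gclm. Gclc (ENSMUSG00000032350; chromosome 9, 77754535 to 77794485, plus strand) had 34.9 and 43.95 CPM in MycCaP samples and 67.4 and 66.8 CPM in MycCaP-BMP4 samples. It stood at 171% and 169% of the MycCaP mean in the 2 MycCaP-BMP4 libraries, so that, unlike Nfe2l2 or Me1, it was nearly equal in both. The group means were 39.5 ± 6.36 CPM and 67.1 ± 0.400 CPM (SD, n = 2), a 1.70-fold difference. On the log2 scale this was 0.77 ± 0.25 (SE), and at an unadjusted p of 0.0234 (edgeR adjusted p = 0.205) it did not pass.

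Gclm (ENSMUSG00000028124; chromosome 3, 122245557 to 122270732, plus strand) had 49.9 and 55.7 CPM against 90.4 and 55.9 CPM. Only MycCaP-BMP4 replicate 1 stood clear of the MycCaP libraries, since replicate 2 exceeded the higher MycCaP value by a small margin. The log2 fold change was 0.47 ± 0.31 (SE; edgeR adjusted p = 0.448), and without MycCaP-BMP4 replicate 1 it was 0.08. Per kilobase of exon, Gclc was 1.17 and 1.32 times Gclm in MycCaP samples, 1.25 times in MycCaP-BMP4 replicate 1 and 2.00 times in replicate 2. The subunit genes thus kept the MycCaP ratio in replicate 1, where both were higher, and parted in replicate 2, where Gclc stood at 169% and Gclm at 106% of the MycCaP mean.

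Gsr (ENSMUSG00000031584; chromosome 8, 33652523 to 33698163, plus strand) encodes glutathione reductase, which returns oxidised glutathione to its reduced form with NADPH. It had 42.1 and 47.0 CPM in MycCaP samples and 57.1 and 47.8 CPM in MycCaP-BMP4 samples. The groups did not overlap, but replicate 2 lay just above the higher MycCaP library. The log2 fold change was 0.24 ± 0.25 (SE), within the spread (edgeR adjusted p = 0.621).

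In the thioredoxin arm, Txnrd1 and Srxn1 overlapped between groups and Prdx1 lay lower in both MycCaP-BMP4 libraries. Txnrd1 (ENSMUSG00000020250; chromosome 10, 82833951 to 82897712, plus strand), which encodes the cytosolic thioredoxin reductase, had 292 and 263 CPM against 176 and 306 CPM. Its MycCaP-BMP4 libraries fell on either side of the MycCaP pair, and the log2 fold change was -0.20 ± 0.37 (SE; edgeR adjusted p = 0.787). Without MycCaP-BMP4 replicate 1 it was 0.14.

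Srxn1 (ENSMUSG00000032802; chromosome 2, 152105516 to 152111376, plus strand) encodes sulfiredoxin, which repairs peroxiredoxins that have been overoxidised. It was the gene with the smallest fitted change of the 10. Its values were 131 and 128 CPM in MycCaP samples and 117 and 142 CPM in MycCaP-BMP4 samples, which lay on either side of the MycCaP pair. The group means were 129 ± 2.06 and 130 ± 17.2 CPM (SD, n = 2), and the sign of its log2 fold change, 0.00 ± 0.26 (SE), turned with the library left out.

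Prdx1 (ENSMUSG00000028691; chromosome 4, 116685544 to 116700822, plus strand) encodes a cytosolic peroxiredoxin that removes hydrogen peroxide. It was the most abundant of the 10 genes in every library, also per kilobase. It had 1098 and 953 CPM in MycCaP samples and 653 and 862 CPM in MycCaP-BMP4 samples, lower in both. The log2 fold change of -0.44 ± 0.39 (SE) did not pass (edgeR adjusted p = 0.564). Per kilobase of exon, Prdx1 was 7.79 and 6.91 times Srxn1 in MycCaP libraries and 5.16 and 5.63 times in MycCaP-BMP4 libraries, so this ratio was lower in both.

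Nqo1 (ENSMUSG00000003849; chromosome 8, 107388225 to 107403206, minus strand) encodes a quinone reductase and is often used as a readout of NRF2 activity. It was the least abundant of the 10 genes, with 24 and 37 counts in the MycCaP libraries and 2 and 18 counts in the MycCaP-BMP4 libraries. In CPM these were 1.05 and 1.56 against 0.0724 and 0.791. MycCaP-BMP4 replicate 1 was thus below the floor of 3 counts, and its exact 95% Poisson interval ran from 0.00877 to 0.262 CPM. That library had 5.53% of the pooled MycCaP level, with an exact 95% interval of 0.654% to 20.8%, and replicate 2 had 60.3%, with an interval of 33.6% to 103%. These intervals cover counting error only. The fitted log2 fold change, -1.61 ± 1.09 (SE), had an edgeR adjusted p of 0.455, and the gene was left out by a filter of 1 CPM in 2 libraries.

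Me1 (ENSMUSG00000032418; chromosome 9, 86581371 to 86695953, minus strand), which encodes the cytosolic malic enzyme that turns malate into pyruvate and yields NADPH, differed most among the genes that were above the floor in each library. It had 7.74 and 11.6 CPM in the MycCaP libraries and 60.2 and 23.2 CPM in the MycCaP-BMP4 libraries. Both MycCaP-BMP4 values exceeded both MycCaP values, at 624% and 240% of the MycCaP mean, and the library with the higher value was replicate 1. The fitted difference was 4.32-fold, or 2.11 ± 0.52 (SE) in log2, at an unadjusted p of 0.00765 (edgeR adjusted p = 0.153). DESeq2 gave an adjusted p of 0.00284, in a range of 0.000146 to 0.890 over all alternatives. Without MycCaP-BMP4 replicate 1 the log2 fold change was 1.26. The median of the 7 tested tumour epithelium genes was 476% of the MycCaP mean in replicate 1 and 197% in replicate 2; their part in the Me1 result was not tested. Of these 7, 5 lay higher in both MycCaP-BMP4 libraries, against 28.9% of all genes tested, 1 overlapped and 1 lay lower, against 29.7%. The claudin gene Cldn3 was at 25.8 and 27.6 CPM in MycCaP samples beside 359 and 126 CPM. Those that did not lie higher in both, named after their values were seen, were the E-cadherin gene Cdh1, with 5.16 and 4.05 CPM beside 0.326 and 1.93 CPM, and the keratin gene Krt8, with 16.6 and 19.4 CPM beside 30.9 and 14.9 CPM. Per kilobase, Me1 was 0.0982 and 0.137 times Cldn3 in MycCaP libraries and 0.0548 and 0.0603 times in MycCaP-BMP4 libraries.

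**Figure D2:**
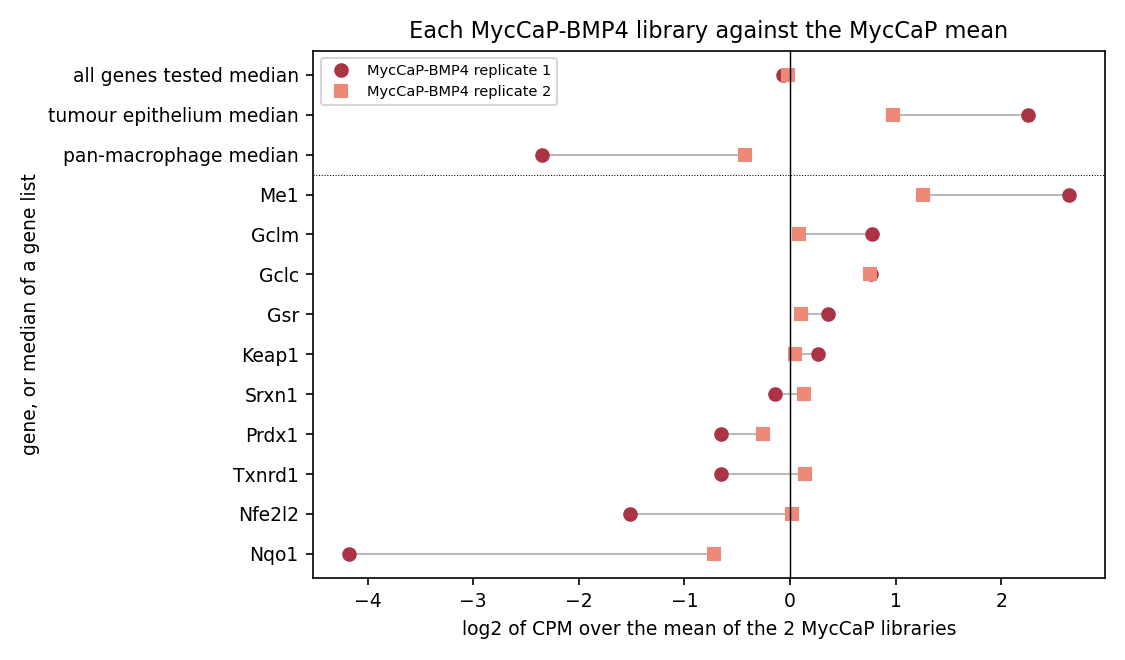
Log2 of the CPM in each MycCaP-BMP4 library over the mean of both MycCaP libraries, for the 10 NRF2 genes (below the dotted line) and for the medians of 3 gene lists (above it). Each gene lies closer to 0 in replicate 2 than in replicate 1, and Gclc is nearly equal in both. The share of all genes that lie closer in replicate 2 was not computed.

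All 10 genes lay closer to the MycCaP mean in MycCaP-BMP4 replicate 2 than in replicate 1, on a log2 scale. In replicate 1, 3 genes differed from that mean by more than 1 in log2, Nqo1 and Nfe2l2 downward and Me1 upward. Only Me1 did so in replicate 2. The shares of all genes tested that met these rules were not computed, so neither count is shown to be particular to the 10 genes. Set beside the macrophage genes of the same library, 9 of the 10 lay above the highest pan-macrophage gene in replicate 1, which stood at -1.72. The median of all genes tested, -0.06 in that library, also lay above it. The share of all genes above it was not computed. In replicate 2, where the highest pan-macrophage gene stood at 0.23, only Gclc and Me1 lay above it. Nqo1 was the exception in replicate 1, at -4.17.

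The order of the levels per kilobase of exon was alike at the top in both groups. In MycCaP libraries Prdx1 had 337 ± 33.6 CPM per kilobase (SD, n = 2), followed by Nfe2l2 at 145 ± 25.5, Srxn1 at 45.8 ± 0.732 and Txnrd1 at 39.2 ± 2.81. Gsr, Gclc, Keap1 and Gclm followed between 16.2 and 8.39 CPM per kilobase, and Keap1 and Gclm overlapped. Me1 had 2.51 ± 0.703 and Nqo1 0.841 ± 0.233 CPM per kilobase. In MycCaP-BMP4 libraries Me1 came to 10.8 ± 6.81 CPM per kilobase, and its libraries overlapped those of Gclm and Keap1, next to it in the order. Srxn1 and Txnrd1 overlapped there, as did Gsr and Gclc.

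The rest of the pathway was taken from 5 lists with 72 genes, of which 65 were tested. No gene passed edgeR's test, 9 were higher and 6 lower at an unadjusted p under 0.05 by edgeR, and their groups did not overlap for 17 that were higher and 22 that were lower. These shares lie beside 12.3% and 6.76%, and 28.9% and 29.7%, of all genes. DESeq2 called 7 of the 65, 6 of them higher (4 in the glutathione list and 2 in the heme, iron and detoxification list) and 1 lower (Osgin1), where it called 6.83% of all genes higher and 3.01% lower. For the 65 genes together the median was -0.10 in log2. The 5 lists differed among themselves in direction, although no list was tested.

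**Figure D3:**
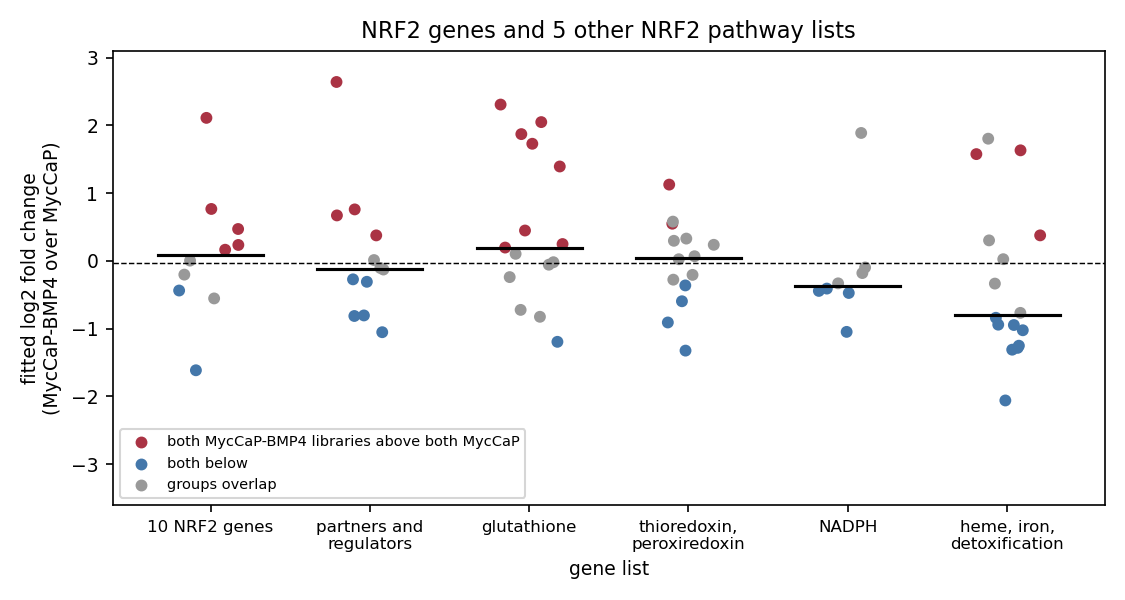
Fitted log2 fold change (MycCaP-BMP4 over MycCaP) of each tested gene of the 10 NRF2 genes and of 5 other NRF2 pathway lists, coloured by whether the libraries of the groups overlap, with the median of each list (solid) and of all genes tested (dashed, -0.03). The median of the heme, iron and detoxification list is -0.80 and that of the glutathione list 0.20.

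Genes of NRF2 partners and regulators had a median log2 fold change of -0.12. Of 12 tested, 4 lay higher and 5 lower in both MycCaP-BMP4 libraries, against 28.9% and 29.7% of all genes tested. Bach1, which encodes a repressor that competes with NRF2 for its elements, had 277 and 288 CPM in MycCaP samples and 79.7 and 242 CPM in MycCaP-BMP4 samples. It was low in the same library as Nfe2l2, and per kilobase Nfe2l2 was 2.83 and 3.49 times Bach1 against 3.93 and 3.74 times. Sqstm1, the gene of the autophagy adaptor p62 that binds KEAP1, had 1703 and 1266 CPM against 716 and 984 CPM. Btrc, which encodes an F-box protein that recognises phosphorylated NRF2, had 18.4 and 21.1 CPM against 42.0 and 24.9 CPM.

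Glutathione genes had a median of 0.20. Of 15 tested, 8 lay higher and 1 lower in both MycCaP-BMP4 libraries, against 28.9% and 29.7% of all genes tested. The microsomal transferase gene Mgst2 had 2.14 and 1.90 CPM against 13.9 and 6.15 CPM (log2 fold change 2.31 ± 0.55, SE). The glutathione transferase gene Gstm2 had 7.61 and 9.88 CPM against 47.5 and 24.8 CPM (2.05 ± 0.41). Ggt1, whose product breaks down glutathione outside the cell, had 11.9 and 13.8 CPM against 61.2 and 24.1 CPM (1.73 ± 0.48). These 3 genes, like Me1 and Cldn3, had their highest value in MycCaP-BMP4 replicate 1. Their edgeR adjusted p values ran from 0.138 to 0.166, and DESeq2 gave adjusted p values of 0.00246 for Mgst2, 0.000686 for Gstm2 and 0.0140 for Ggt1. The part of the tumour epithelium genes was not tested. Gstp1 and Gpx2 had no count in any library, and Gstp1 is 1 of a set of near-identical genes between which reads may not be assigned.

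In the list of thioredoxin, peroxiredoxin and peroxide genes the median was 0.05. Of 14 tested, 2 lay higher and 4 lower in both libraries, against 28.9% and 29.7% of all genes tested. Prdx5, which encodes a mitochondrial and peroxisomal peroxiredoxin, had 389 and 280 CPM against 81.1 and 186 CPM. Txnrd3, a thioredoxin reductase gene best known from testis, had 4.16 and 4.39 CPM against 11.2 and 7.42 CPM. The stress-induced sestrin gene Sesn2 had 28.9 and 29.8 CPM against 18.4 and 12.8 CPM, and here replicate 2 was the lowest library.

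The 8 genes of the NADPH list, which leaves out Me1, had a median of -0.37, where Me1 had 2.11. In both MycCaP-BMP4 libraries 4 of 8 were lower and 0 higher, against 29.7% and 28.9% of all genes tested. Me3, named after its values were seen, was the only 1 of the 8 with a fitted change above 0, at 1.89. It had 0.131 and 0.507 CPM against 2.03 and 0.351 CPM, so its groups overlapped. Taldo1 and Tkt, which encode transaldolase and transketolase of the pentose phosphate pathway, had 344 and 257 CPM against 112 and 179 CPM, and 249 and 261 CPM against 162 and 213 CPM. Pgd, the gene of phosphogluconate dehydrogenase, had 295 and 274 CPM against 185 and 225 CPM. Taldo1 had an unadjusted p of 0.0313 and an edgeR adjusted p of 0.226.

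Heme, iron and detoxification targets had the lowest median of the 5 lists, -0.80. Of 16 tested, 8 lay lower and 3 higher in both libraries, against 29.7% and 28.9% of all genes tested. The median rested on MycCaP-BMP4 replicate 1 and was -0.17 without it. Osgin1, an oxidative stress-induced growth inhibitor gene, had 21.1 and 20.9 CPM in MycCaP samples and 2.32 and 7.78 CPM in MycCaP-BMP4 samples (log2 fold change -2.06 ± 0.60, SE; edgeR adjusted p = 0.179, DESeq2 adjusted p = 0.00983). The aldo-keto reductase gene Akr1b8 had 9.49 and 11.4 CPM against 41.6 and 23.2 CPM. For the export pump gene Abcc4 the values were 22.7 and 26.3 CPM against 102 and 44.2 CPM. DESeq2 called both, with adjusted p values of 0.00735 and 0.0179, where edgeR gave 0.147 and 0.165. Hmox1, the heme oxygenase gene, was chosen after its values were seen: it had 899 and 772 CPM against 145 and 838 CPM, so that, like Nfe2l2, it was low in MycCaP-BMP4 replicate 1 and within the MycCaP range in replicate 2. The pan-macrophage genes were low in the same library, and their part was not tested.

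**Figure D4:**
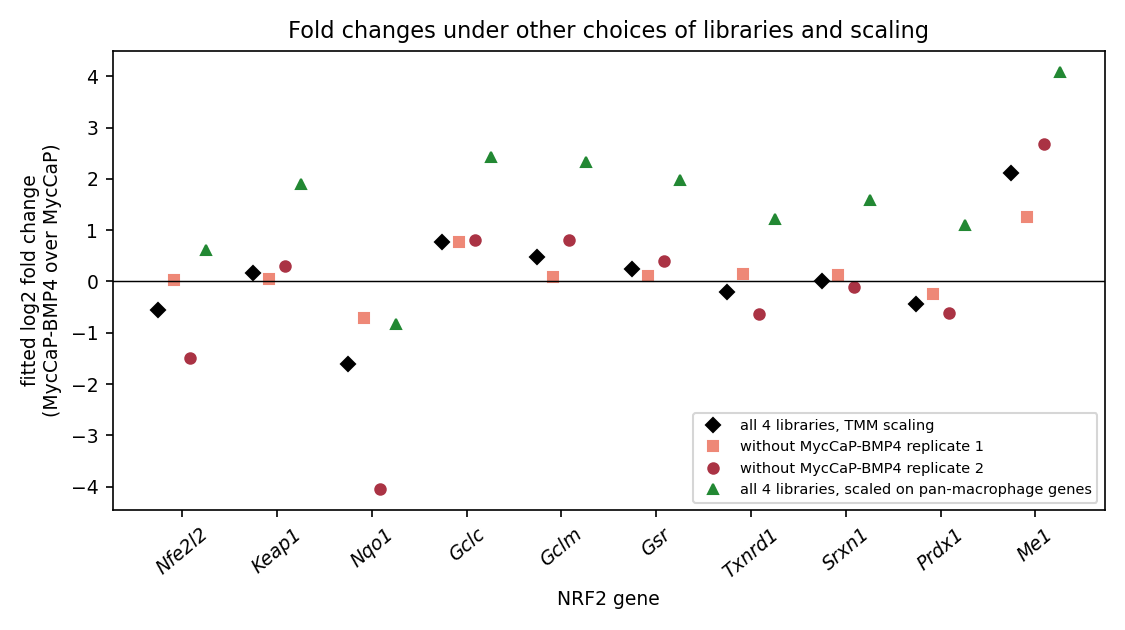
Fitted log2 fold change (MycCaP-BMP4 over MycCaP) of the 10 NRF2 genes with all libraries, with either MycCaP-BMP4 library left out, and with libraries scaled on the pan-macrophage genes. Gclc, Keap1, Gclm, Gsr and Me1 stay above 0 and Nqo1 below 0 in all 4 settings, while Nfe2l2, Txnrd1, Srxn1 and Prdx1 do not keep 1 sign.

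Scaling on the pan-macrophage genes in place of TMM moved each of the 10 fold changes more than DESeq2 or limma-voom did. With it, the median over all genes went from -0.03 to 1.61 in log2 and that of the 10 NRF2 genes from 0.08 to 1.74. Under that scaling Nfe2l2 had 0.62, Txnrd1 1.21 and Prdx1 1.11, against -0.55, -0.20 and -0.44 with TMM, while Gclc had 2.43, Me1 4.09 and Nqo1 -0.82.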

How the data were processed

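RNA of sorted tumour macrophages was sequenced in 4 libraries, 2 per group, grouped by the cell line in the labels. Per the labels' protocols, the libraries were made from polyadenylated RNA with a directional kit and sequenced from both ends. The deposited values are the authors' raw HTSeq counts per gene. The submitters' processing notes name STAR 2.6.0b, RSEM and Bowtie2 2.2.3 besides HTSeq, and the build GRCm38 (mm10). What each program was used for, the gene annotation and whether counting used strand are not given there. Exons of Keap1 and Gclm overlap those of antisense genes, by 510 and 296 bases. How reads in these bases were counted is therefore not known. The antisense genes themselves were given 45 counts at most.

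Symbols came from a reference table (37607 of 39179 identifiers) and exon lengths from GENCODE M21 (GRCm38), as the union of all exons of a gene. HTSeq's summary lines did not enter library sizes; reads outside genes were 3.37% to 6.03% of all counted reads. Counts were filtered with filterByExpr, scaled with TMM (factors 0.916 to 1.14) and tested with edgeR 4.0.16, quasi-likelihood F test, two-sided, Benjamini-Hochberg adjusted over 14075 genes, threshold 0.05, without covariates, as MycCaP-BMP4 over MycCaP. Alternatives used DESeq2 1.42.0, limma-voom 3.58.1, other scalings and filters, replicate blocks, and each library left out. Replicates differed by far more than sampling noise (chi-square per degree of freedom 43.2 and 279).

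The 10 genes, lists, tests and alternatives were chosen with earlier results of these data known. Of each of the 5 other NRF2 lists, the 3 genes with the largest fold change among those with a mean of at least 5 CPM and groups that do not overlap are named, since none passed edgeR's test. Lists of pan-macrophage, tumour epithelium, fibroblast and mural, endothelial, osteoblast, neutrophil, and T and NK cell genes are given beside the results.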

Additional observations from a re-analysis of the deposited data

How the results depend on the processing

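Over 13 alternatives, 110 of 129 fold changes of single NRF2 genes kept their direction and their side of the threshold, 10 passed it in the same direction and 9 turned sign. Calls across all genes numbered 65 with library size alone, 979 with scaling on pan-macrophage genes, 1109 with no filter on low counts and 1385 with DESeq2's test, against 0. NRF2 genes called numbered 1, Me1, with pan-macrophage scaling, with no filter and with DESeq2's test. Without 1 library in turn, calls ranged from 0 to 5753 and NRF2 genes called from 0 to 5 (Me1 alone without MycCaP-BMP4 replicate 1, and Nfe2l2, Nqo1, Gclc, Gclm and Me1 without MycCaP-BMP4 replicate 2). In such fits the lone sample is assumed to vary like the other group, so a call does not tell whether a difference repeats.

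Scaling on pan-macrophage genes moved the median of all genes to 1.61, of the 10 NRF2 genes to 1.74, and of the other lists to 1.52 (partners and regulators), 1.83 (glutathione), 1.81 (thioredoxin and peroxiredoxin), 1.10 (NADPH) and 0.42 (heme, iron and detoxification). With library size alone the median of all genes was 0.14 and that of the thioredoxin list 0.24. The heme, iron and detoxification median ranged from -1.46 to -0.17 with 1 library left out. Reversed signs were those of Nfe2l2 (0.62), Txnrd1 (1.21) and Prdx1 (1.11) under pan-macrophage scaling. With 1 library left out, Nfe2l2 ranged from -1.49 to 0.02, Txnrd1 from -0.63 to 0.14 and Srxn1 from -0.11 to 0.13. Apart from what each setting's construction shows, the cause was not tested.

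The replicate numbers share only a number between groups. With the number as a replicate block, 2 genes were called, 0 of them NRF2 genes, and Srxn1 was at 0.00. Same-numbered deviations correlated with r = -0.15 across genes, so a crossed replicate block was added after the data were seen: it called 689 genes, 1 of them an NRF2 gene, with Srxn1 at 0.00. Depth limits Nqo1 alone of the 10 genes, with 2 counts in its lowest library.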
